A study of Mus musculus with 22 samples.

Results

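The gasdermin family was followed in mpkCCD cells, a mouse cell line that models the cortical collecting duct, a hormone-controlled segment of the kidney tubule. It comprised the 7 lines of the deposited expression table, of 55415 in all, that carry the symbols Gsdmc, Gsdmc2, Gsdmc3, Gsdmc4, Gsdma, Gsdmd and Gsdme. Unsorted wild-type (WT) cells were left without dDAVP or given it, with 3 libraries each; dDAVP, or desmopressin, activates the V2 receptor for vasopressin. The GFP reporter lines C1, C11, C43 and C50, each named as a separate line of the same cells and taken here as clones, were all given dDAVP and sequenced as GFP-negative and GFP-positive cells apart, with 2 libraries for each clone and fraction. The series title gives the subject as the variability of aquaporin-2 (Aqp2), the vasopressin-regulated water channel, between cells as read by GFP. All cells had 50 nM dexamethasone in the medium. The labels name 0.1 and 1 nM dDAVP and 24 and 48 h without assigning them to libraries, and they name vehicle for the untreated condition. The family was chosen by its values in the comparison of GFP fractions, where Gsdmc2 and Gsdmc3 were among the genes with the largest differences. Member values in that comparison are therefore a description without a test. The dDAVP comparison in WT cells, the differences between clones and the interaction of fraction with clone are tested. The interaction uses the same fraction values that chose the family, and how that choice affects it was not tested.

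Gasdermins are proteins whose amino-terminal domain, once freed by a protease, inserts into membranes and forms pores. Such pores can let cytokines out of a cell and can end in the lytic death called pyroptosis. Gsdmd is the substrate of the inflammasome caspases Casp1 and Casp4, and human GSDMC has been described as a substrate of caspase-8. The mouse has several Gsdmc genes side by side where humans have a single one, and they are best known from the epithelium of the gut, where they respond to the cytokines of type 2 immunity.

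The Gsdmc genes lie on chromosome 15 in the order Gsdmc, Gsdmc2, Gsdmc3, Gsdmc4, with transcribed pseudogenes between and after them (RefSeq, GRCm38.p6). Gsdmd is elsewhere on chromosome 15, Gsdma on chromosome 11 and Gsdme on chromosome 6. The coding sequences of Gsdmc2 and Gsdmc3 were 97.1% identical over 1443 aligned bases, those of Gsdmc2 and Gsdmc4 93.5%, and that of Gsdmc shared 85.9 to 87.1% with the others. Between the Gsdmc genes and Gsdma, Gsdmd or Gsdme, and among those 3, identity was 40.9 to 52.0%. How near the copies are matters for the measurement, since reads were 50 bases long. The stretch of 75 bases in which Gsdmc2, Gsdmc3 and Gsdmc4 differed most is given for the 4 paralogs (GENCODE M21 coding sequences, from base 788 in Gsdmc2 and Gsdmc3, 794 in Gsdmc4 and 797 in Gsdmc), with capitals at the bases that differ from Gsdmc2.
Gsdmc2: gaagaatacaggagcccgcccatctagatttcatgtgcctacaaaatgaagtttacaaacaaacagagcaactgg
Gsdmc3: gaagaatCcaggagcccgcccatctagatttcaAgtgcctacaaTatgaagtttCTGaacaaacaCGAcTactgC
Gsdmc4: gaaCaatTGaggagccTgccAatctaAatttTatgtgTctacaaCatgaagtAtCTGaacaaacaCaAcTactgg
Gsdmc: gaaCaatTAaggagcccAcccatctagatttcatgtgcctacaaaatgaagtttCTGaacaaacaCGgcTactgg
Here 11 bases set Gsdmc3 apart from Gsdmc2, 16 set Gsdmc4 apart and 10 set Gsdmc apart. At the other extreme, the following 146 bases (coding bases 256 to 401) were the same in Gsdmc2, Gsdmc3 and Gsdmc4, and capitals mark the 25 bases at which Gsdmc has another letter.
Gsdmc2, Gsdmc3 and Gsdmc4: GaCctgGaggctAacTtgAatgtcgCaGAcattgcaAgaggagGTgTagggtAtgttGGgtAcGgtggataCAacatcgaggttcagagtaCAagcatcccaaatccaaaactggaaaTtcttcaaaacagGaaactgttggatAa
A read inside that run can be assigned to 1 of the 3 genes only through its mate, if that lies outside it. Of the distinct 50-base windows in the annotated transcripts of each gene, 51.3% of those of Gsdmc2, 46.0% of Gsdmc3, 39.0% of Gsdmc4 and 16.1% of Gsdmc also occurred in another Gsdmc gene. These shares treat each read alone, and a mate outside the shared stretch can lower the ambiguity, which was not measured here. The share was 8.26% for Gsdma, all with Gsdma2 or Gsdma3, and 0 for Gsdmd and Gsdme. The separate values of Gsdmc2, Gsdmc3 and Gsdmc4 can therefore be uncertain, and the sum of the 4 Gsdmc paralogs is given beside them.

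Expression is given as TPM, a per-length transcript abundance scaled to the same total in every library. It keeps no read depth, so no counting error can be given and the spread between libraries is the only measure of precision. The labels do not say whether the libraries of a group came from separate cultures, so p-values measure the spread between these libraries, which may be technical. Between 12308 and 14386 genes reached 1 TPM. Libraries fell into 10 with 17206 to 20288 genes above 0 and 12 with 23174 to 31393, and both sorts occurred in the WT control, the WT dDAVP, the GFP-negative and the GFP-positive libraries. By clone the sorts were uneven. Both GFP-negative C1 libraries were of the first sort (17206 and 19463 genes) and both GFP-negative C11 libraries of the second (23174 and 29934). GFP was at 0.38 TPM or less on average in WT cells, 8.11 to 16.4 TPM in the GFP-negative and 1114 to 1496 TPM in the GFP-positive fractions, which matches the labels. Of 9 markers of collecting duct principal cells 6 had a median of at least 1 TPM, whereas the potassium channel gene Kcnj1 had a median of 0 and the sodium channel subunit gene Scnn1b of 0.285 TPM. The defining markers of gut epithelium, Muc2, Vil1, Cdx2 and Lgr5, summed to 1.28 TPM or less in every library.

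Gsdmc2, Gsdmc3 and Gsdmc4 rose with dDAVP in WT cells. Gsdmc2 (ENSMUSG00000056293) was at 14.38, 13.2 and 15.04 TPM in the control libraries and at 46.98, 60.08 and 51.49 TPM with dDAVP, means of 14.2 ± 0.932 and 52.9 ± 6.66 TPM (SD, n = 3 each) and a 3.72-fold difference. Gsdmc4 was at 8.61, 7.6 and 8.56 TPM without and 22.61, 24.77 and 21.94 TPM with dDAVP, a 2.80-fold difference of means. Gsdmc3 was at 4.9, 4.66 and 4.02 TPM without and 10.85, 13.65 and 10.07 TPM with dDAVP, a 2.55-fold difference. For each of the 3 genes every dDAVP library lay above every control library, as in 7.12% of 13494 genes. The sum of the 4 paralogs went from 27.0 ± 1.31 to 87.5 ± 9.69 TPM (SD, n = 3 each), 3.24-fold higher.

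In the limma fit over 13494 genes, 3 of the 4 members that passed the filter on low values (a mean of at least 1 TPM) had an adjusted p under 0.05, all 3 of them higher. Over all genes of that fit 8.88% were called, 2.37% higher and 6.51% lower. That balance turned with scaling, from 320 genes higher and 878 lower as deposited to 450 higher and 306 lower after median-ratio scaling. The log2 change, on the log2(TPM + 1) scale used for all changes here, was 1.82 for Gsdmc2 (standard error 0.113, limma adjusted p 0.000293). It was 1.38 for Gsdmc4 (standard error 0.103, limma adjusted p 0.00066) and 1.17 for Gsdmc3 (standard error 0.151, limma adjusted p 0.00679). By the size of its rise Gsdmc2 ranked 66 of the 13494 genes. The median change over all genes was -0.16, and after median-ratio scaling, which brought that median to 0.000268, the changes were 1.98, 1.54 and 1.32 for Gsdmc2, Gsdmc4 and Gsdmc3. Because the paralogs share reads, these are not 3 independent observations. Within the libraries with fewer genes detected (1 against 1) the log2 difference of the paralog sum was 1.51, and within those with more (2 against 2) it was 1.73.

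The 7 markers of leukocytes and macrophages summed to 87.7 to 94.1 TPM in the control and 106 to 121 TPM in the dDAVP libraries of WT cells, and to 60.2 to 116 TPM in GFP-negative and 91.5 to 156 TPM in GFP-positive libraries. Of these 7, 3 had a median of at least 1 TPM: Cd14 at 81.0 TPM, Csf1r at 12.0 TPM and Cd68 at 5.43 TPM. These 3 were above 0 in every library. The macrophage genes Adgre1 and Lyz2 had medians of 0. The 7 markers of intercalated cells, the other epithelial cell of the collecting duct, summed to 41.7 to 58.0 TPM without and 43.1 to 64.7 TPM with dDAVP, and to 21.5 to 73.8 and 46.8 to 112 TPM in the GFP-negative and GFP-positive libraries. Almost all of that sum was Atp6v1b1, with a median of 57.4 TPM. Slc4a9 had a median of 2.08 TPM, and the master regulator gene Foxi1 had a median of 0. The 4 proximal tubule markers summed to 10.3 to 15.3 TPM without and 5.17 to 8.42 TPM with dDAVP. Nearly all of that was Lrp2, and Slc5a2 had a median of 0. By clone, both fractions together, the leukocyte and macrophage sum was 93.1 to 126 TPM in C1, 103 to 129 TPM in C11, 111 to 156 TPM in C43 and 60.2 to 94.7 TPM in C50. The proximal tubule sum was 0.94 to 3.99 TPM in C1, 9.99 to 16.1 TPM in C11, 4.27 to 6.22 TPM in C43 and 5.38 to 12.8 TPM in C50. The intercalated sum was 57.8 to 112 TPM in C1 and reached from 21.5 to 95.0 TPM in the other clones. The principal cell sum, which includes Aqp2, had its lowest values in C1 in both fractions (342 to 366 TPM in GFP-negative and 2825 to 2868 TPM in GFP-positive cells) and its highest in C43 (2464 to 2718 and 9296 to 10294 TPM). The part of these genes in the gasdermin differences was not tested. In such bulk libraries, fewer cells that express a gene and less RNA of it per cell cannot be told apart.

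**Figure D1:**
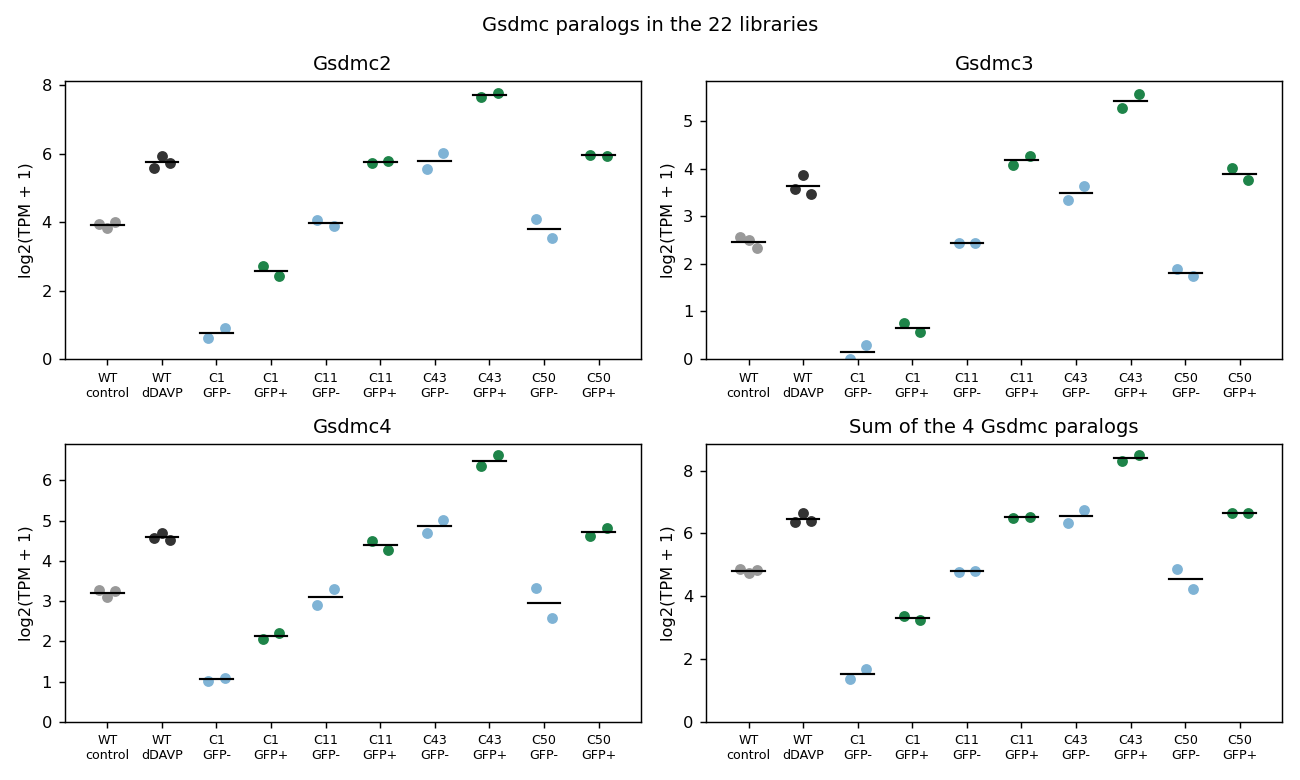
Level of Gsdmc2, Gsdmc3, Gsdmc4 and the sum of the 4 Gsdmc paralogs as log2(TPM + 1), each panel with its own scale. Each point is 1 library and each line the mean of a group (3 libraries in the WT groups, 2 in the others). Clone C1 sits lowest and clone C43 highest, and within each clone the GFP-positive points lie above the GFP-negative ones.

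In the clones the same 3 genes were at higher values in the GFP-positive than in the GFP-negative fraction, without overlap in any of the 4 clones. These are the values that chose the family. Gsdmc2 was at 0.54 and 0.87 TPM in GFP-negative and 5.52 and 4.4 TPM in GFP-positive cells of C1, and at 15.67 and 13.67 against 51.78 and 53.79 TPM in C11. In C43 it was at 45.77 and 63.78 against 199.48 and 216.36 TPM, and in C50 at 16.09 and 10.51 against 61.59 and 60.53 TPM. The GFP-negative cells of C43 thus held about as much Gsdmc2 as the GFP-positive cells of C11 and C50. C1, with GFP-negative values under 1 TPM, had the highest ratio of means, 7.04, then C50 with 4.59, C43 with 3.80 and C11 with 3.60. As differences of log2(TPM + 1) the order was C50 (2.15), C43 (1.92), C1 (1.81) and C11 (1.78).

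Gsdmc4 was at 1.03 and 1.12 against 3.17 and 3.59 TPM in C1, and at 6.42 and 8.87 against 21.72 and 18.39 TPM in C11. In C43 it was at 25.06 and 31.37 against 81.04 and 98.22 TPM, and in C50 at 9.07 and 4.97 against 23.54 and 27.22 TPM. Its ratios of means were 2.62 to 3.62. Gsdmc3 was at 0 and 0.22 against 0.68 and 0.49 TPM in C1, and at 4.39 and 4.4 against 15.97 and 18.44 TPM in C11. In C43 it was at 9.11 and 11.49 against 37.88 and 46.48 TPM, and in C50 at 2.7 and 2.36 against 15.23 and 12.55 TPM. In C1 all 4 libraries were under 1 TPM. In the fit over 13113 genes with the clone as a covariate the log2 differences were 1.91, 1.44 and 1.57 for Gsdmc2, Gsdmc4 and Gsdmc3, with no test because this contrast chose the genes. A GFP-positive fraction above the GFP-negative one without overlap in all 4 clones was seen in 6.72% of those genes, and 35.3% were called in either direction.

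The level of the Gsdmc genes differed widely between clones whatever the fraction, a comparison that did not choose them. Clone C1 was lowest and clone C43 highest for Gsdmc2, Gsdmc3 and Gsdmc4 in both fractions. Averaged over the fractions, the log2 difference of C1 from the mean of the other clones was -3.83, -3.14 and -2.83 for Gsdmc2, Gsdmc3 and Gsdmc4, and that of C43 was 2.94, 2.27 and 2.62. A moderated F-test of the clone difference in limma gave adjusted p of 1.91e-08, 3.52e-08 and 2.35e-07 in that order. By that F, Gsdmc2 ranked 8, Gsdmc3 ranked 20 and Gsdmc4 ranked 44 among 13113 genes, of which 31.6% were called, beside 3 of the 4 members tested. The calls of these 3 genes held in all of the 23 alternatives run for each. Each clone is a single line, so a property of the clone and of its culture or sort cannot be told apart.

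From the highest to the lowest clone the paralog sum spanned 49.4-fold in the GFP-negative fractions (93.4 TPM in C43, 1.89 TPM in C1) and 38.1-fold in the GFP-positive fractions (339.9 and 8.93 TPM). Aqp2 spanned 23.4-fold and 3.45-fold between the same clones. Ordered by mean, GFP-positive C43 stood first, and its libraries did not overlap those of any other group. GFP-positive C50 (100.4 TPM), GFP-negative C43 (93.4 TPM), GFP-positive C11 (90.1 TPM) and WT with dDAVP (87.5 TPM) followed, and each overlapped its neighbour in this order. Then came WT control (27.0 TPM), GFP-negative C11 (26.7 TPM) and GFP-negative C50 (22.9 TPM), which also overlapped their neighbours. GFP-positive C1 and GFP-negative C1 were last and overlapped no neighbour.

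Whether the fraction difference had the same size in every clone was tested by the interaction of fraction with clone, which was called in 0.869% of 13113 genes. It was called for none of the 4 members tested with limma, and at an unadjusted p under 0.05 for Gsdmc3 only, beside 1691 of the 13113 genes. The adjusted p was 0.783 for Gsdmc2 (F 0.627), 0.555 for Gsdmc4 (F 1.65), 0.0549 for Gsdmc3 (F 13.2) and 0.756 for Gsdme (F 0.707). Gsdmc3 depended on the settings: with a pseudocount of 0.1 in place of 1 its F was 0.281 (adjusted p 0.912), while without GFP-negative C50 replicate 1 or replicate 2 the adjusted p was 0.0295 and 0.00513. In those fits the interaction was called in 328 of 13151 and 5038 of 13066 genes. The log2 difference of Gsdmc3 was 0.52 in C1, where the gene was under 1 TPM, and 1.75, 1.93 and 2.07 in C11, C43 and C50. A p above the threshold does not show that the clones responded alike. The interaction is also built from the fraction values that chose the family, so nothing further is read from its p-values for the members.

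**Figure D2:**
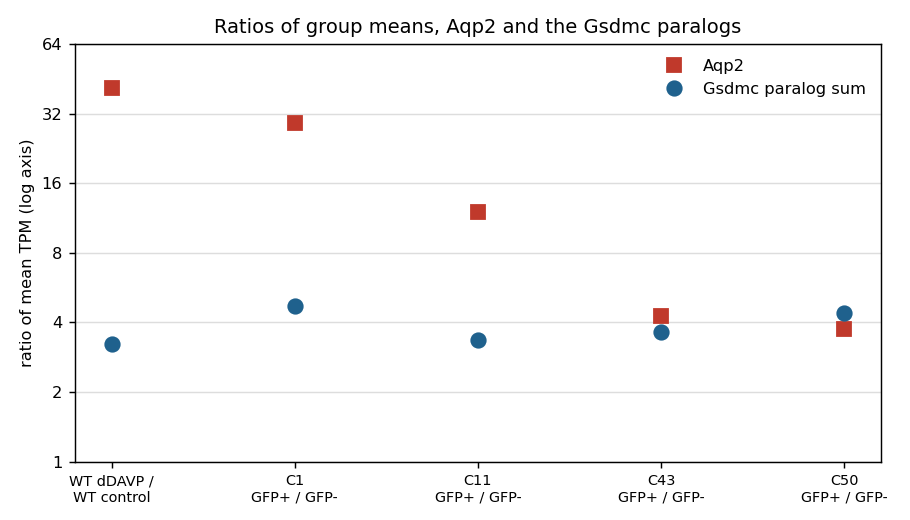
Ratio of group means of TPM for Aqp2 (squares) and for the sum of the 4 Gsdmc paralogs (circles), on a log axis, for dDAVP against control in WT cells and for GFP-positive against GFP-negative cells in each clone. The Gsdmc ratios lie between 3.24 and 4.72, the Aqp2 ratios between 3.74 and 41.5.

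Set beside Aqp2, the Gsdmc sum had ratios in a narrow range. The ratio of group means of the sum was 3.24 for dDAVP in WT cells, and between the fractions it was 4.72, 3.37, 3.64 and 4.39 in the clones, from C1 to C50. The Aqp2 ratios for the same comparisons were 41.5, 29.0, 12.04, 4.28 and 3.74. Levels also came apart: GFP-positive C1 cells held 2017 TPM of Aqp2, 29.2 times the 69.1 TPM of WT control cells, but 8.93 TPM of the Gsdmc sum, where WT control cells held 27.0 TPM. GFP-negative C1 cells, with 69.5 TPM of Aqp2, held 1.89 TPM of the sum. Over the 10 group means of log2(TPM + 1) the Pearson r of Aqp2 with the Gsdmc sum was 0.730, which ranked Aqp2 467 of 9619 genes, and that of GFP was 0.290. Over the 8 groups without C1 the r of Aqp2 was 0.793, at rank 275. The points share clones and treatment, and the r is a description.

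**Figure D3:**
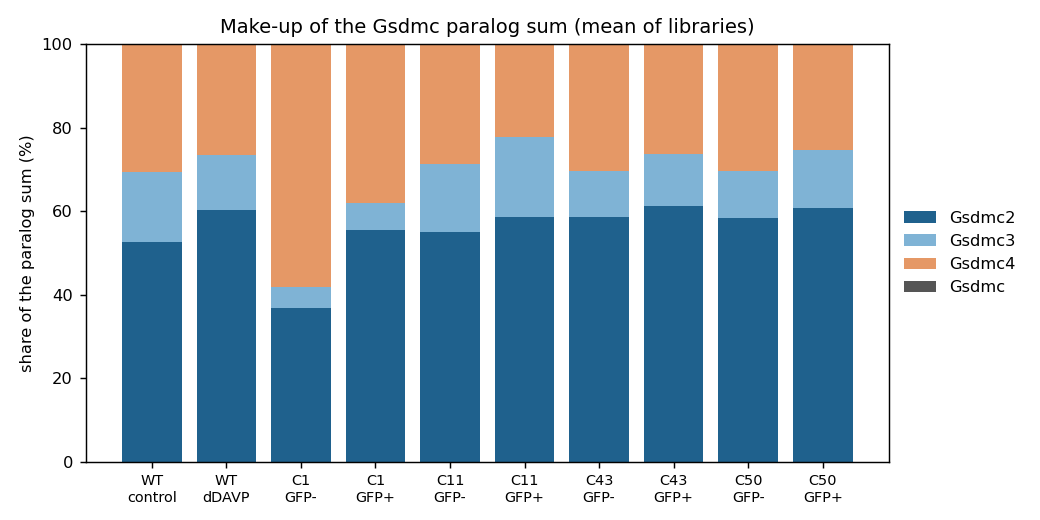
Share of each Gsdmc paralog in the sum of the 4, in percent, as the mean over the libraries of each group. Gsdmc2 makes the largest part in 9 of the 10 groups, Gsdmc4 does in GFP-negative C1, and Gsdmc is too low to be seen.

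Gsdmc2 was the main transcript of the cluster. It made 52.5% of the paralog sum in WT control libraries (51.4 to 54.5%) and 60.3% with dDAVP (58.4 to 61.7%), and the ranges did not overlap. Gsdmc4 made 30.5% and 26.5%, and Gsdmc3 16.8% and 13.1%. In the clones other than C1 the group means of the Gsdmc2 share lay between 54.9% and 61.3%, and single libraries between 50.7% and 62.6%. In GFP-negative C1, at under 3 TPM in all, Gsdmc4 made 58.1% and Gsdmc2 36.9%. Gsdmc, the first gene of the cluster, was nearly silent, at 0 to 0.23 TPM, and was listed at 0 in 8 of the 22 libraries. These shares rest on how the counting tool divided shared reads, which was not tested.

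The transcribed pseudogenes of the cluster, chosen here after their values were seen, share no 50-base window with Gsdmc, Gsdmc2, Gsdmc3 or Gsdmc4, so their reads can be told from those of the members. They do share windows with each other. Of the windows of Gsdmcl-ps 25.6% also occurred in Gsdmcl2, and 18.7% the other way, so their separate values can be uncertain. Gsdmcl2, between Gsdmc3 and Gsdmc4, was at 0.05 and 0.55 TPM on average in GFP-negative and GFP-positive C1, 1.24 and 2.03 TPM in C11, 2.52 and 7.26 TPM in C43 and 0.825 and 3.09 TPM in C50. It too was lowest in C1 and highest in C43. In WT cells it was at 2.07, 1.63 and 0.97 TPM without and 1.24, 3.52 and 2.77 TPM with dDAVP, which overlapped. Gsdmcl-ps, after Gsdmc4, was at 3.22 and 3.08 TPM in WT cells without and with dDAVP, and at 0.015 and 0.475 TPM in C1 against 0.83 to 3.75 TPM in the other clones. Its highest clone mean was GFP-positive C11, not C43. The next gene, Cyrib, a regulator of the actin cytoskeleton, was at 94.1 TPM without and 111 TPM with dDAVP. In the clones Cyrib was also lowest in C1 (53.2 and 68.5 TPM in GFP-negative and GFP-positive cells) and highest in C43 (97.5 and 155.9 TPM). No test is given for these genes, since they were chosen with their values known.

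RefSeq promoter sequences matched Gsdmc3 and Gsdme. That of Gsdmc3 is shown as the promoter of a member that rose with dDAVP, a hormone signal that runs through cyclic AMP. It is the 250 bases before the annotated start, GRCm38.p6 chr15:63878559-63878808, minus strand, with a TATAA match in capitals.
Gsdmc3: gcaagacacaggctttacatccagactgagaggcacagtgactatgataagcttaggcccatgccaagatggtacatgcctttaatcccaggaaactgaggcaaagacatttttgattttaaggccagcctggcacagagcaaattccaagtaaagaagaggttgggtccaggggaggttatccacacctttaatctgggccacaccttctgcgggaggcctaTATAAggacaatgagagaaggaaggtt
The TATAA lies at position -27, counted from the start, and 22.8% of 32851 promoters of the same length hold this word on either strand. The cAMP response element TGACGTCA (1.55% of promoters), its core TGACG (17.8%, which includes the full element), the STAT6 palindrome with 4 bases between its arms (5.85%) and the palindromic glucocorticoid element (0.01%) had no match in this window on either strand. The same 5 words had no match in the window of Gsdme.

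Gsdme was expressed in every library at a few TPM and was the only member outside the Gsdmc cluster that passed the filter. In WT cells it was at 7.97, 5.63 and 5.39 TPM without and 3.15, 4.73 and 4.17 TPM with dDAVP, means of 6.33 ± 1.43 and 4.02 ± 0.801 TPM (SD, n = 3 each). The dDAVP libraries all lay below the control libraries, as in 28.7% of genes tested. The log2 change, -0.54 (standard error 0.20), did not pass the test (limma adjusted p 0.12). With the number of genes detected as a covariate it was -0.62 (limma adjusted p 0.0399), in a fit that called 2694 of the 13494 genes. In the clones Gsdme ranged from 1.68 to 6.86 TPM, with GFP-negative means of 5.88, 5.05, 4.34 and 3.55 TPM in C1, C11, C43 and C50 and GFP-positive means of 4.79, 3.03, 2.73 and 3.49 TPM. The GFP-negative C50 libraries were at 1.70 and 5.40 TPM and the GFP-positive C43 libraries at 3.77 and 1.68 TPM, so that 1 library decides either mean. The fractions overlapped in C1, C43 and C50. The clone difference had a limma adjusted p of 0.343, and without GFP-negative C50 replicate 2 it was 0.0322, in a fit that called 7947 of 13066 genes against 4143 of 13113 as reported.

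**Figure D4:**
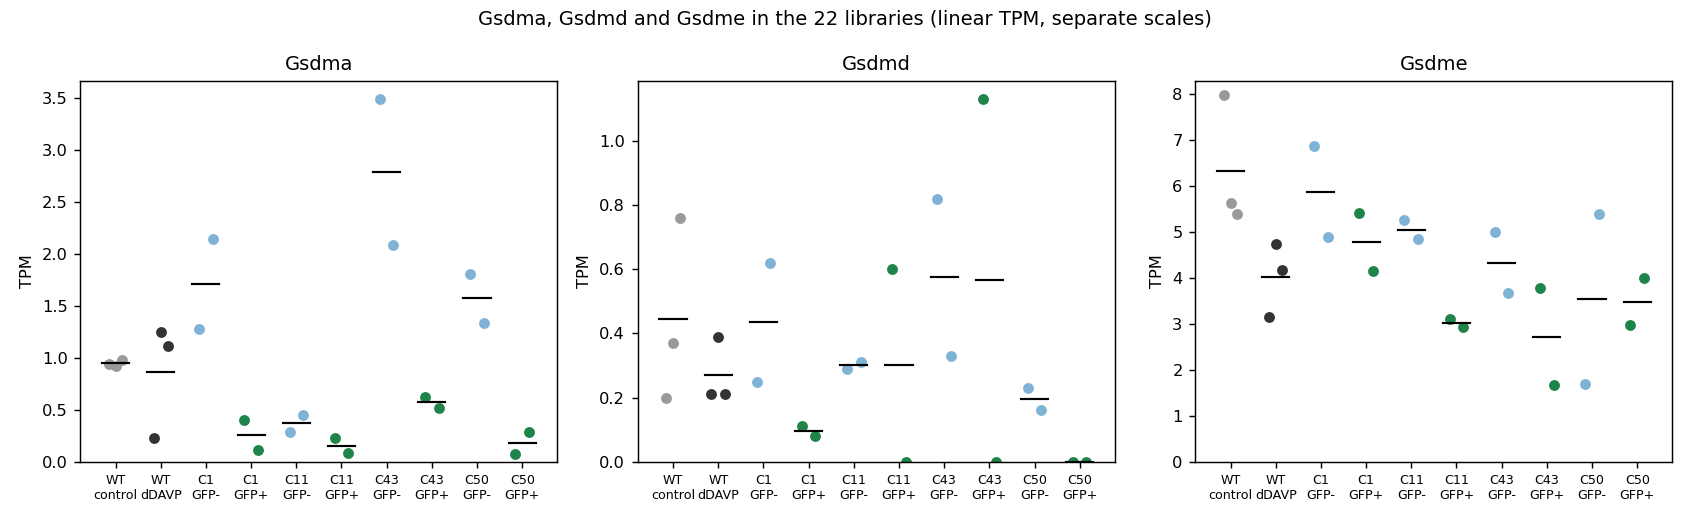
Gsdma, Gsdmd and Gsdme in TPM on linear axes with separate scales. Each point is 1 library and each line the mean of a group (3 libraries in the WT groups, 2 in the others). Gsdma points are lower in the GFP-positive than in the GFP-negative fraction of every clone, Gsdmd stays at 1.13 TPM or below, and Gsdme lies between 1.68 and 7.97 TPM.

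Gsdma, which in skin is cut by a bacterial protease, was low, with a mean of 0.937 TPM over the 22 libraries and at least 1 TPM in 8 of them. It did not pass the filter in either fit and has no test. In WT cells it was at 0.94, 0.92 and 0.98 TPM without and 0.23, 1.25 and 1.11 TPM with dDAVP, which overlapped. Between the fractions of each clone it ran against Gsdmc2, Gsdmc3 and Gsdmc4, while between the clones its highest means, like theirs, were in C43. It was at 1.28 and 2.14 TPM in GFP-negative against 0.4 and 0.11 TPM in GFP-positive C1, and at 0.29 and 0.45 against 0.23 and 0.08 TPM in C11. In C43 it was at 3.49 and 2.08 against 0.62 and 0.52 TPM, and in C50 at 1.81 and 1.33 against 0.07 and 0.29 TPM. The GFP-positive libraries were lower without overlap in all 4 clones, as were those of 2.42% of 1857 genes with a mean of 0.5 to 1 TPM and 12.2% of all genes tested. This contrast chose the family, so nothing is read from that share.

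Gsdmd, the gasdermin of the inflammasome, was close to absent. It was at 0.2, 0.37 and 0.76 TPM in WT control and 0.21, 0.39 and 0.21 TPM in WT dDAVP libraries, at 0 to 1.13 TPM in the clones, and listed at 0 in 4 libraries, which included both of GFP-positive C50. GFP-positive libraries were lower without overlap in C1 (0.11 and 0.08 against 0.25 and 0.62 TPM) and C50 (0 and 0 against 0.23 and 0.16 TPM), while the fractions overlapped in C11 and C43. No test was made, since it did not pass the filter. Of the other gasdermin genes of the mouse, Gsdma2 had a median of 0.445 TPM, Gsdma3 of 0 and Pjvk of 0.13 TPM, and none passed the filter.

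The genes that act on gasdermins were taken from lists of 58 genes, made with earlier results of these data known, of which 29 were tested in WT cells. With dDAVP 1 of the 29 rose and none fell at a limma adjusted p under 0.05, beside the 2.37% higher and 6.51% lower over all genes, a balance that turned with median-ratio scaling (450 genes higher and 306 lower). At an unadjusted p under 0.05 there were 1 higher and 3 lower of the 29, beside 4179 of the 13494 genes tested. Their median change was -0.13 and that of all genes -0.16. The gene that rose was Il18, an interleukin that gasdermin pores release, from 3.56 ± 0.160 to 8.22 ± 2.39 TPM (SD, n = 3 each), a log2 change of 0.99 (standard error 0.196, limma adjusted p 0.0278). The call was lost in 7 of 13 alternatives. Without control replicate 1, 2 or 3 the adjusted p was 0.0775, 0.0845 and 0.0883, and without dDAVP replicate 1 or 3 it was 0.0583 and 0.0708.

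Of the 10 caspases and granule proteases listed, 4 passed the filter in WT cells and none was called by limma, with 1 of the 4 at an unadjusted p under 0.05 beside the 4179 of 13494 genes. Casp8 was at 49.9 TPM without and 44.9 TPM with dDAVP (limma adjusted p 0.21). Casp6 was at 33.1 TPM in both groups. Casp1, the inflammasome protease, and the granzymes Gzma and Gzmb had medians of 0 over the 22 libraries. Of 15 inflammasome sensors and adaptors 14 had a median under 1 TPM, among them Nlrp3 at 0 and the adaptor Pycard at 0.38 TPM, and only the Nlrp3 partner Nek7 passed the filter. Il1b had a median of 0. Casp4, the other caspase that cuts Gsdmd, ranged from 0 to 7.11 TPM, with a median of 0.525 TPM.

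**Figure D5:**
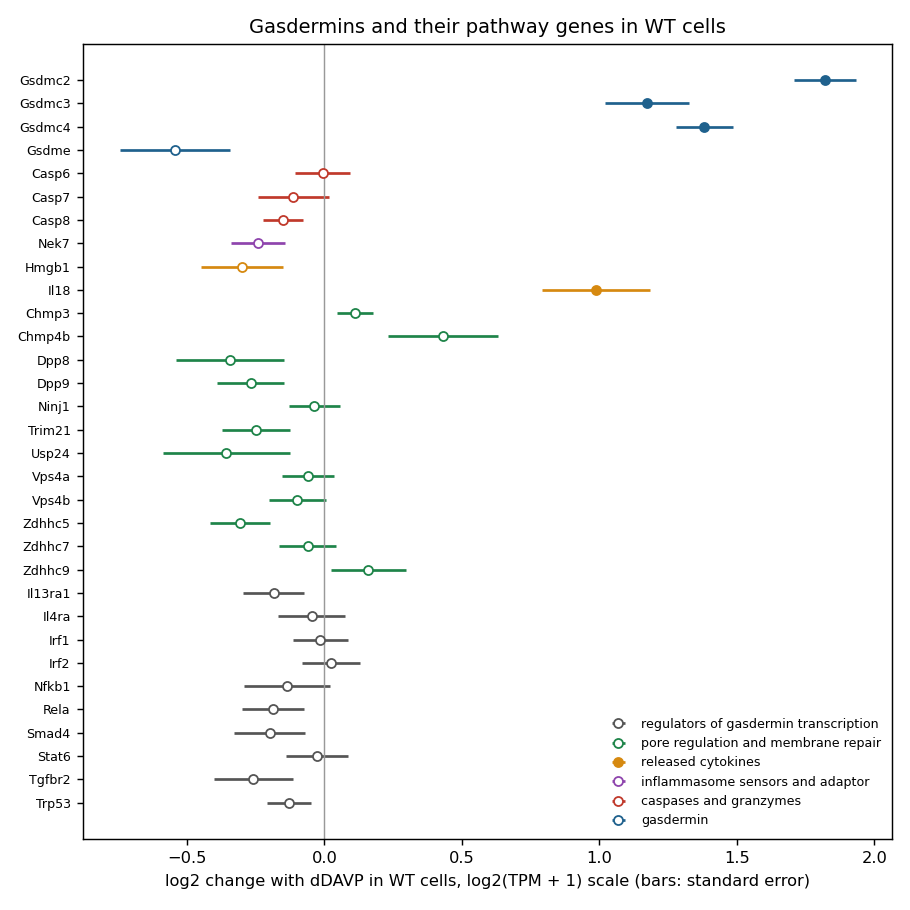
Log2 change with dDAVP in WT cells, on the log2(TPM + 1) scale, of the 4 gasdermins and 28 of the 29 pathway genes that passed the filter. Points are limma estimates from 3 against 3 libraries and bars their standard errors, and filled points have an adjusted p under 0.05. Gsdmc2, Gsdmc4, Gsdmc3 and Il18 are filled, all to the right of 0.

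Between the GFP fractions 30 genes of the lists were tested, and 3 were higher and 5 lower in GFP-positive cells. This comparison chose the family, and the lists were made with earlier results of these data known. Over all 13113 genes 12.1% were called higher and 23.2% lower, and the balance of directions depended on scaling, with 34.2% of calls higher as deposited and 51.0% after median-ratio scaling. The median change of the listed genes was 0.01 and that of all genes -0.06. The 3 that rose were Il18 (log2 change 0.84), Zdhhc9, a palmitoyl transferase (0.61), and Irf1, a transcription factor of interferon signalling (0.53), with limma adjusted p of 0.00322, 0.0011 and 0.000444. Il18 was at 9.82 ± 5.84 TPM in GFP-negative and 21.3 ± 16.9 TPM in GFP-positive libraries (SD, n = 8 each, clones included).

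The 5 that fell were Hmgb1, a chromatin protein released by dying cells, Casp4, Trp53, the deubiquitinase gene Usp24 and Ninj1, whose product ruptures the plasma membrane in lytic death. Hmgb1 fell from 504 ± 63.0 to 256 ± 20.1 TPM (SD, n = 8 each, limma adjusted p 2.41e-07). Ninj1 fell from 173 ± 21.2 to 130.7 ± 12.1 TPM (SD, n = 8 each, limma adjusted p 0.000819). Casp4, the caspase that senses bacterial lipopolysaccharide inside cells, was at 2.74 ± 2.73 and 0.669 ± 0.804 TPM (SD, n = 8 each, limma adjusted p 0.00443), and with clone means as replicates its adjusted p was 0.0562. The GFP-positive mean of Casp4 was under the 1 TPM of the filter, so it entered this fit through its GFP-negative libraries. Its call is therefore not read as a result. Trp53 changed by -0.49 (limma adjusted p 0.000743) and Usp24 by -0.41 (limma adjusted p 0.0237). The Usp24 call was lost in 7 of 27 alternatives, among them without GFP-negative C11 replicate 2 or GFP-positive C11 replicate 1 (adjusted p 0.0536 each) and without clone C1, C11 or C43 (0.0936, 0.149 and 0.128). Of the listed regulators of gasdermin transcription, Stat6, which carries the type 2 cytokine signal, was at 93.0 ± 34.4 and 118 ± 32.1 TPM (SD, n = 8 each) and was not called (limma adjusted p 0.165).

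The genes whose pattern over the 10 group means was most like that of the Gsdmc sum, among 9619 genes with a mean of at least 5 TPM, were Dusp10 (Pearson r 0.972), Rnf186 (0.965), Rasd1 (0.961), Pbld1 (0.953) and Trim14 (0.952). Dusp10, a phosphatase of stress-activated kinases, was at 13.6 TPM in GFP-negative C1 and at 60.2 TPM in GFP-positive C43, a much narrower span than that of the Gsdmc sum. Rnf186, an epithelial ubiquitin ligase, ran from 28.3 to 376.8 TPM between the same groups. Trim14 did not share the rise with dDAVP in WT cells, at 15.7 TPM without and 14.6 TPM with it. Without the 2 groups of C1, over 8 groups, Dusp10 kept an r of 0.965 (rank 3), and Rnf186, Rasd1, Pbld1 and Trim14 had r of 0.896, 0.895, 0.916 and 0.864 at ranks 50, 51, 30 and 95. For Gsdme the closest were Fem1b (0.985), Pom121 (0.983) and Sun1 (0.980). Over the 22 single libraries 3 of the 5 genes named for the Gsdmc sum stayed among the first 5 by Pearson r, and by Spearman rho over the 10 groups none did. These r are descriptions over groups that share clones, sort and treatment.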

How the data were processed

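RNA-seq libraries of mpkCCD cells (22 in 10 groups, from the sample labels) were made with SMART-Seq HT from 1 ng of RNA, 11 PCR cycles, and Nextera XT, per the labels' protocols, and sequenced paired-end at 50 bp. STAR and RSEM are named in the submitters' processing notes, without versions or roles; genome build and annotation are not given in the sources used here. The authors deposited TPM per gene and library, their group means, and a ratio of group means per comparison; the deposited ratio was not used. Lines that share a symbol (980 lines, 79 symbols) were summed.

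Linear models on log2(TPM + 1) were fitted with limma 3.58.1 in R 4.3.3 to all genes with a mean of at least 1 TPM over the libraries of the fit, with moderated statistics, a mean-variance trend and two-sided Benjamini-Hochberg adjusted p under 0.05. WT libraries (6) and clone libraries (16, clone as covariate) were fitted apart; clone differences and the interaction used moderated F-tests. The paralog sum has no test. The fits were tested on simulated data. Coding sequences came from GENCODE M21 and were aligned with MAFFT 7.526. TPM hold no depth, so replicate spread is the only precision.

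Replicate numbers did not pair the libraries. Genes were named by rule: the members, Aqp2 and GFP, called genes of the pathway lists (up to 3 per list and direction) with each list's defining genes, and the genes of most similar pattern (5 for the Gsdmc sum, 3 for Gsdme). The members and lists were chosen with earlier results of these data known. One gene of the lists counts in the totals but is not reported here. Alternatives were another pseudocount, filters, scaling, no trend, a replicate block, genes detected as a covariate, clone means, and leaving out libraries or clones; the split by genes detected and the patterns without C1 were chosen after seeing the data.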

Additional observations from a re-analysis of the deposited data

How the results depend on the processing

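Gsdmc2 and Gsdmc4 kept their rise with dDAVP in WT cells in all of 13 alternatives (log2 change 1.72 to 1.98 and 1.33 to 1.54; limma adjusted p 7.68e-05 to 0.00918 and 0.000392 to 0.0228). Gsdmc3 did in 12 of 13 (1.05 to 1.32), and with the replicate number as a block its adjusted p was 0.0548. Numbers did not pair the libraries (correlations of deviations -0.21, -0.03 and -0.11 in WT cells and 0.05, 0.02, 0.20 and 0.08 in C1, C11, C43 and C50). The clone differences of Gsdmc2, Gsdmc3 and Gsdmc4 held in all 23 alternatives each, while that of Gsdma, which entered 4 fits, passed without GFP-positive C1 replicate 2 (adjusted p 0.0441) or GFP-positive C50 replicate 1 (0.0361) and not with no filter (0.0892) or without GFP-positive C11 replicate 2 (0.0883). The Gsdmc3 interaction also passed with no trend (0.0416) and with genes detected as a covariate (0.0394), so that 1 member was called in each; leaving out single libraries gave 0 to 1 members for the interaction and 3 to 4 for the clone difference. The cause of these changes was not tested.

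Counts over all genes moved more than the members. For dDAVP in WT cells 1198 genes were called as reported, 442 with no filter, 756 after median-ratio scaling (450 higher and 306 lower, against 320 and 878), 691 with no trend, 122 with the replicate block (119 of them shared), 2694 with genes detected as a covariate, and 314 to 2038 without single libraries. Pathway genes called there numbered 0 with no filter, 0 with the block, 4 with the covariate and 0 to 1 without single libraries. Between GFP fractions 2406 genes were called with clone means as replicates and 4170 to 6043 without single libraries, and 8 to 13 pathway genes. Clone differences numbered 2857 to 7947 without single libraries, the most without GFP-negative C50 replicate 2. The interaction was called in 11 genes with the replicate block and in 42 to 5038 without single libraries, the most without GFP-negative C50 replicate 2. After median-ratio scaling the mean paralog sum was 23.5 TPM in WT control, 24.7 and 92.5 TPM in GFP-negative and GFP-positive C11, 372 TPM in GFP-positive C43 and 101.8 TPM in GFP-positive C50. Where a library was left out of a group of 2, the lone library was assumed to vary like the other groups. TPM hide depth, so values under 1 TPM (Gsdmc, nearly all of Gsdmd, most of Gsdma) have unknown counting error, and with 2 libraries per fraction the spread within a clone is poorly known.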
